A study of Mus musculus with 14 samples.

Results

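The genes described here are 10 surface molecules that tune the activation of T cells, chosen by name and read from the rows of both count tables whose Ensembl ID maps to the symbols Ctla4, Cd28, Icos, Btla, Lag3, Tigit, Havcr2, Cd200, Cd226 and Klrg1. They are 10 of 53801 gene IDs in the table of the Foxp3-YFP-cre line and of 55487 in that of the inducible line, and all 10 passed the filter on low counts in each comparison. They are commonly grouped with the CD28 family, but only 4 of them (Cd28, Icos, Ctla4 and Btla) encode members or close relatives of it. The other genes encode receptors of other immunoglobulin families, a lectin-like receptor (Klrg1) and a ligand (Cd200). All encode proteins of the cell surface, and the values below are of mRNA.

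The libraries were made from regulatory T cells (Tregs) of mice in which Junb, an AP-1 transcription factor gene, was deleted by a Cre recombinase driven from Foxp3. Peyer's patch (PP) Tregs, sorted as CD4+Foxp3(YFP)+CD62L-, came from 2 HET (JunB F/+ Foxp3YFPcre) and 2 KO (JunB F/F Foxp3YFPcre) mice, all male and with no tamoxifen. In the inducible line (Foxp3ERT2cre with a Rosa26-tdTomato reporter), JunB F/+ (iHET) and JunB F/F (iKO) mice both received tamoxifen by gavage, 8 mg on each of days 0, 1 and 3, and Tregs were taken on day 7. The gate was TCRb+CD4+Foxp3(EGFP)+tdTomato+, from the colon lamina propria of 3 iHET and 3 iKO mice and, with CD25- cells alone, from the PP of 2 iHET and 2 iKO mice. Mouse 1 of each inducible group was a male carrying Foxp3ERT2cre+, and the others were females carrying Foxp3ERT2cre+/+, so sex and the number of Cre alleles cannot be told apart. Controls of both lines carried 1 floxed Junb allele and the same Cre, and none was wild type. The study notes germline deletion of Junb in the Foxp3-YFP-cre line, and deletion there lasts from the start of Foxp3 expression, whereas in the inducible line it was a matter of days.

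Depth was from 26274861 to 35508709 counts per library. CPM below are counts scaled to the size of the library with TMM factors (trimmed mean of M-values), computed once for each count table, so levels of the Foxp3-YFP-cre line and the inducible line are set side by side without a test. Junb was 8.64-fold lower in KO than in HET PP Tregs, 5.42-fold lower in iKO than in iHET CD25- PP Tregs, and 7.53-fold lower in iKO than in iHET colonic Tregs, with no overlap between the genotypes in any of them. The summed level of 6 Treg markers (Foxp3, Il2ra, Ikzf2, Cd4, Cd3e and Trac) lay between 4012 and 5260 CPM in the 14 libraries. Most of this sum came from Cd4, Cd3e and Trac, which are genes of CD4 T cells in general, while Foxp3 was at 59.7 to 155 CPM. Transcripts of other cells were present too, with B cell markers at a sum of 58.1 to 278 CPM, epithelial markers at 63.8 to 2047 CPM and myeloid and dendritic markers at 59.3 to 254 CPM. The CD8 and NK markers summed to 40.4 to 127 CPM, with Cd8a at up to 23.2 CPM, while Ncr1 was at 0 in at least 1 library of every group. In bulk libraries, a lower share of cells that express a gene and less RNA per cell cannot be told apart.

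A T cell that binds antigen needs a costimulatory signal, chiefly from CD28, which binds CD80 and CD86 on antigen-presenting cells. CTLA-4 binds the same ligands more tightly, and Tregs use it to strip them from the presenting cell. ICOS is a relative of CD28 that follicular cells depend on. CD226 and TIGIT form a similar pair, since the activating CD226 and the inhibitory TIGIT compete for CD155, encoded by Pvr. BTLA binds HVEM (Tnfrsf14), LAG-3 binds MHC class II, TIM-3 (Havcr2) binds galectin-9 and CEACAM1 among others, and KLRG1 binds cadherins and marks differentiated effector cells. CD200 is the ligand of an inhibitory receptor on myeloid cells and is itself prominent on follicular T cells and B cells.

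The receptors spanned a wide range of levels. Per kb of exon, Ctla4 was the highest of the 10 in every group, at 1411 ± 218 CPM per kb (SD, n = 2) in HET PP Tregs and 1223 ± 141 CPM per kb (SD, n = 3) in iHET colonic Tregs. By this measure it ranked between 7 and 23 among all annotated genes of a table. Icos followed in all PP groups, at 336 ± 24.6 CPM per kb in HET PP Tregs, and Tigit came next there, although in CD25- PP Tregs the ranges of Icos and Tigit overlapped. In the colon the second place was held by Klrg1, at 323 ± 155 CPM per kb in iHET Tregs, where its range overlapped that of Icos.

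At the low end, Havcr2 was the lowest of the 10 in all 4 PP groups, at 5.27 ± 0.112 CPM per kb in HET PP Tregs and 2.13 ± 0.242 CPM per kb in iHET CD25- PP Tregs. In iHET colonic Tregs it took the sixth place, at 27.3 ± 7.06 CPM per kb, a level its neighbour Lag3 (27.1 ± 4.65 CPM per kb) did not differ from beyond the spread. Cd200 took the last place in the colon, at 9.80 ± 2.29 CPM per kb in iHET Tregs. Cd28 stood in the middle everywhere, between 96.2 CPM per kb in iKO CD25- PP Tregs and 160 CPM per kb in iHET colonic Tregs.

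**Figure D1:**
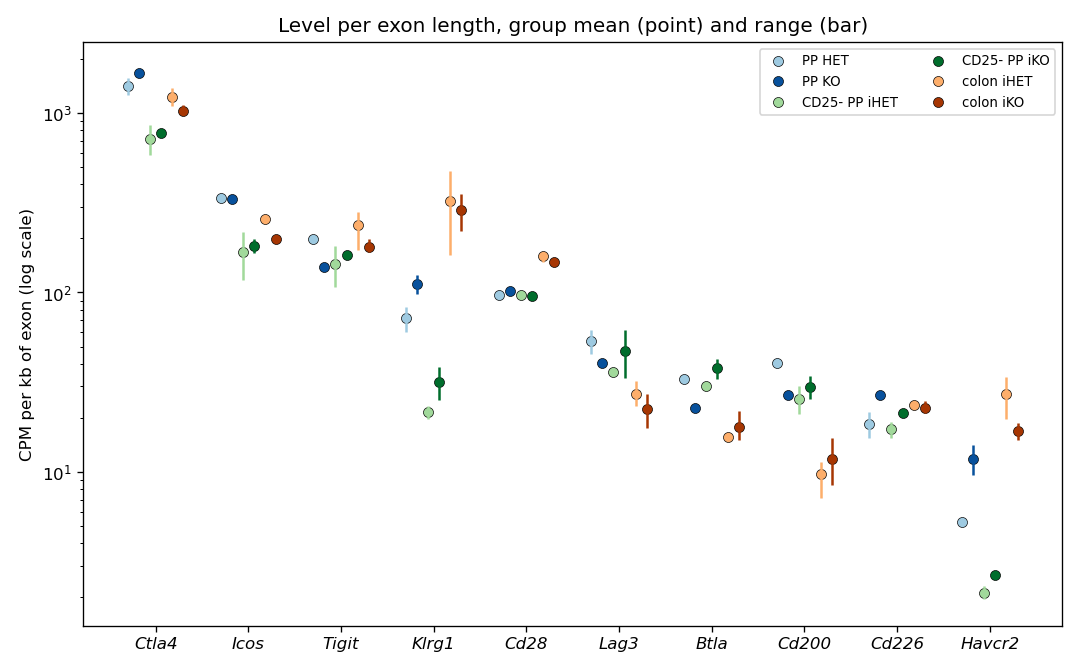
Mean level of each gene per kb of exon (vertical axis, log scale) in the 6 groups, with the bar from the lowest to the highest library of the group. Ctla4 lies above all others in each group, while Klrg1 and Havcr2 have the widest gap between the colon and CD25- PP.

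In PP Tregs of the Foxp3-YFP-cre line, the comparison of KO with HET asks how levels differ in mice with a lasting lack of JunB in Tregs. The study reports that these KO mice weigh less and lose follicular regulatory T cells. It names that loss as a dominant influence on these data and the ongoing inflammation as a likely confounder. The part of either in the differences below was not tested. Of the 10 genes, 4 were differentially expressed at a false discovery rate (FDR) under 0.05, with Havcr2 higher and Cd200, Btla and Tigit lower in KO Tregs. Gene positions below are on GRCm38. Among all 12224 genes tested, 409 were called (3.35%), 121 of them higher (0.990%) and 288 lower (2.36%) in KO Tregs. Neither genotype's range overlapped the other for 8 of the 10 genes, against 43.6% of all genes. The median log2 fold change of the 10 genes was 0.02, beside 0.00 for all genes, and the median of its absolute size was 0.52, beside 0.13 for all genes.

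Havcr2 (ENSMUSG00000020399.14, chromosome 11 from 46454935 to 46481255) was at 14.6 and 14.1 CPM in HET mice, against 26.1 and 38.3 CPM in KO mice. TIM-3, its product, is an inhibitory receptor of effector and exhausted T cells, and among Tregs it is found on activated ones in tissues. Both KO libraries lay above both HET libraries and also apart from each other. The fold was 2.24 (log2 fold change 1.16, standard error 0.186, 95% interval 0.74 to 1.59, FDR = 0.0166, edgeR's quasi-likelihood test, as for all FDRs below).

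Cd200 (ENSMUSG00000022661.14, chromosome 16 from 45382135 to 45409053) was at 136 and 133 CPM in HET mice, against 89.9 and 87.2 CPM in KO mice. Its log2 fold change was -0.60 (standard error 0.0772, FDR = 0.00913), a level 1.52-fold lower in KO Tregs. Btla (ENSMUSG00000052013.15, chromosome 16 from 45224315 to 45257670) was at 114 and 110.5 CPM in HET mice, against 77.1 and 77.6 CPM in KO mice. The fall was 1.45-fold (log2 fold change -0.54, standard error 0.0798, FDR = 0.0138). BTLA inhibits the cell that carries it, and follicular T cells, Tregs among them, and B cells express it.

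Tigit (ENSMUSG00000071552.5, chromosome 16 from 43648867 to 43664146) was at 183 and 180 CPM in HET mice, against 129 and 127 CPM in KO mice. It was 1.42-fold lower (log2 fold change -0.50, standard error 0.0733, FDR = 0.0132). In all 3 genes that fell, replicates of a genotype lay much closer to each other than to the other genotype. Without HET replicate 1 none of the 10 genes was called, and without HET replicate 2 only Cd226 was, although the direction of the 4 genes held. The FDRs of Cd200, Btla, Tigit and Havcr2 without HET replicate 1 were 0.0928, 0.147, 0.0928 and 0.118, in fits where the lone HET library was assumed to vary as the KO libraries do.

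Markers of other cells moved in the same comparison. Of 8 genes listed as markers of follicular regulatory T (Tfr) cells, 7 were called, all lower in KO Tregs. The 8 were Cxcr5, Bcl6, Pdcd1, Sh2d1a, Ascl2, Tox2, Il21 and Cebpa. They are not specific to Tfr cells, and the study names Pdcd1, Bcl6 and Ascl2 as genes of follicular helper T cells too. The summed level of the 8 was 1697 to 1893 CPM in HET and 1011 to 1052 CPM in KO libraries. Of 9 B cell markers 1 was called (Cr2, lower), with sums of 242 and 278 CPM in HET mice against 130 and 202 CPM in KO mice. Of 9 epithelial markers 7 were called, all lower, with sums of 149 to 171 CPM in HET and 63.8 to 71.7 CPM in KO libraries. The sums of the myeloid markers overlapped (105 to 174 CPM in HET, 103 to 151 CPM in KO). Of the 9 CD8 and NK markers, 7 of them tested, Klrb1c and Nkg7 were called, both lower, with sums of 85.7 and 98.1 CPM in HET mice against 57.2 and 53.4 CPM in KO mice. Cd8a, of the same list, was not called and did not fall, at 6.65 and 10.4 CPM in HET mice against 7.86 and 11.5 CPM in KO mice. Of the 6 Treg markers Foxp3 (log2 fold change 0.51) and Il2ra (0.73), which encodes CD25, were called, both higher. The part of these cells in the lower Cd200, Btla and Tigit was not tested.

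Among the costimulatory receptors, none was called in this comparison. Cd226 (ENSMUSG00000034028.16, chromosome 18 from 89176967 to 89272229) was at 75.2 and 105 CPM in HET mice, against 126 and 137 CPM in KO mice. The groups did not overlap, but the FDR was 0.107 (log2 fold change 0.54, standard error 0.146). Cd28 (ENSMUSG00000026012.2, chromosome 1 from 60716800 to 60773359) was at 560 and 621 CPM in HET mice, against 611 and 630 CPM in KO mice, with overlapping groups and a 95% interval of the log2 fold change from -0.13 to 0.27. Icos (ENSMUSG00000026009.14, chromosome 1 from 60977927 to 61000320) was at 1093 and 1212 CPM in HET mice, against 1120.5 and 1146 CPM in KO mice, with an interval from -0.24 to 0.19. For both genes these intervals leave out a change of the size seen in Cd200.

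The other inhibitory receptors also missed the threshold. Klrg1 (ENSMUSG00000030114.8, chromosome 6 from 122270596 to 122282882) was at 85.2 and 118 CPM in HET mice, against 176 and 139 CPM in KO mice (log2 fold change 0.63, standard error 0.162, FDR = 0.0911). Lag3 (ENSMUSG00000030124.2, chromosome 6 from 124904361 to 124911705) was at 130 and 95.9 CPM in HET mice, against 85.5 and 86.0 CPM in KO mice (FDR = 0.204), with HET replicate 1 above the other HET library by more than that library was above the KO libraries. Ctla4 (ENSMUSG00000026011.13, chromosome 1 from 60887000 to 60915832) was at 2929 and 3646 CPM in HET mice, against 3697 and 4104 CPM in KO mice (FDR = 0.477). Klrg1 and Cd226 passed the FDR of 0.05 in 4 of 7 other settings of the fit, the exact test of the study among them (FDR = 0.0114 and 0.0252), and Lag3 passed in 2.

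**Figure D2:**
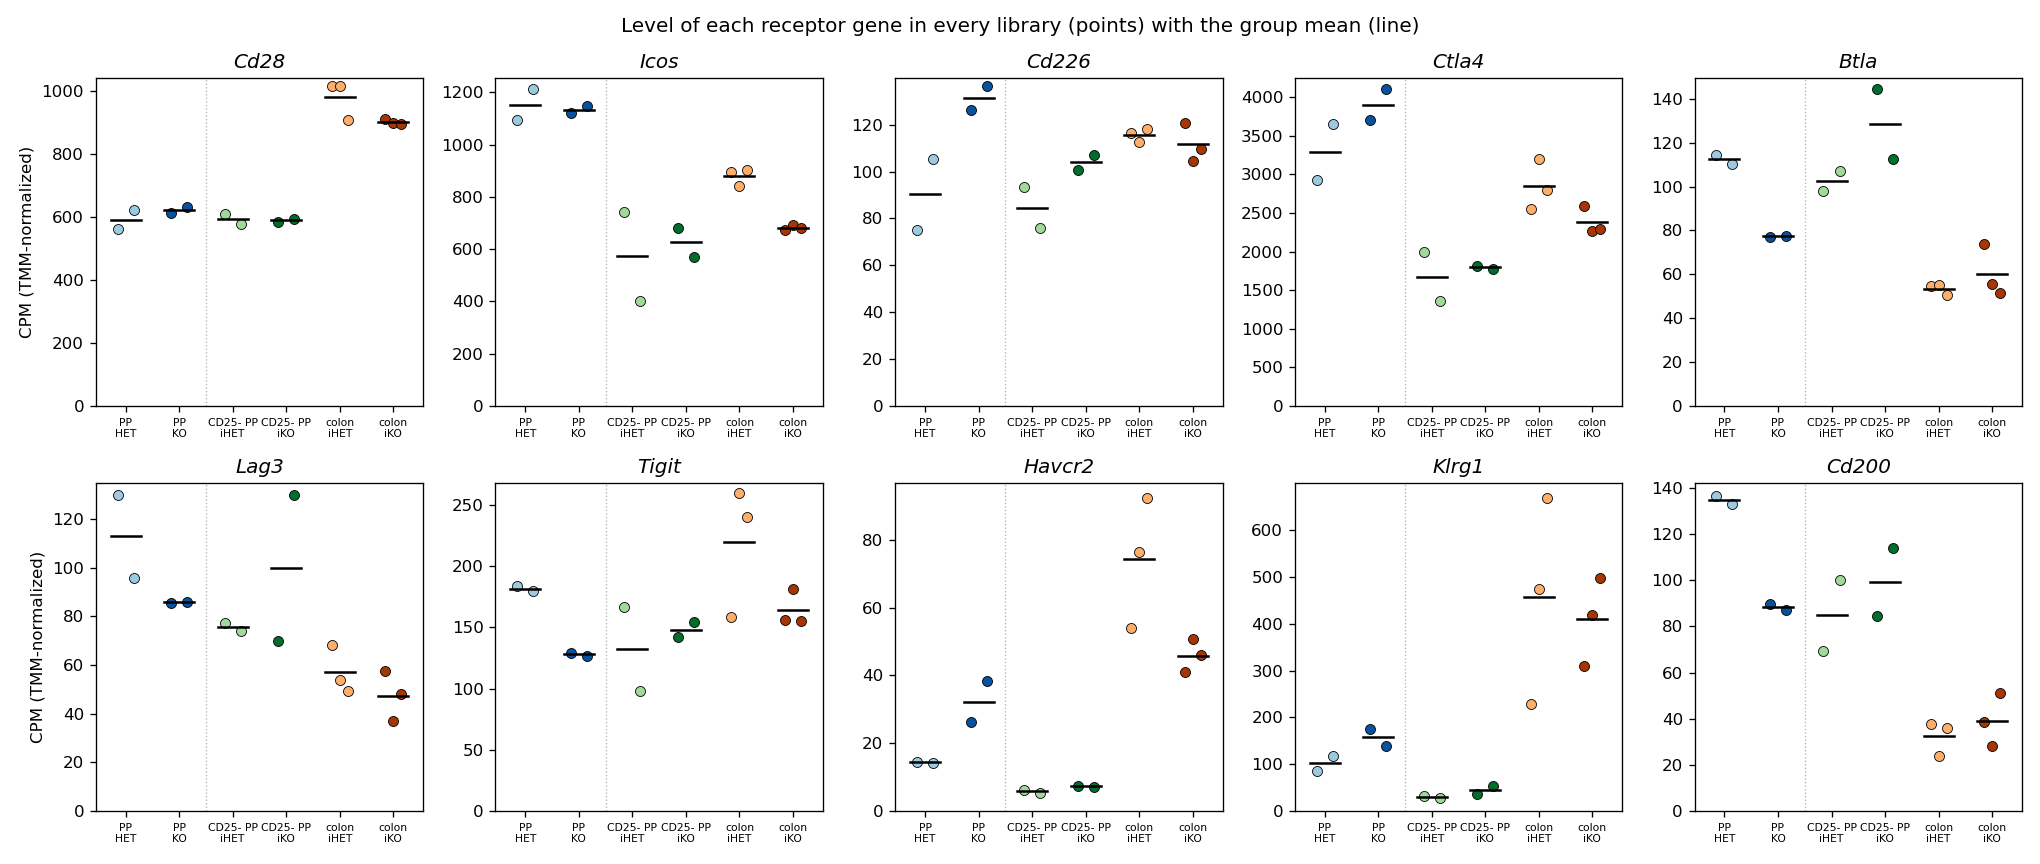
CPM of each of the 10 genes (vertical axes, from 0) in the 14 libraries, with points for libraries and lines for group means, and a dotted line between the separately scaled lines of mice. Havcr2 and Klrg1 are far higher in the colon than in CD25- PP, and Btla, Tigit and Cd200 are lower in both KO libraries than in both HET libraries of PP Tregs.

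Promoter sequence was taken from RefSeq (GRCm38.p6) for 5 of the 10 genes, Ctla4, Btla, Tigit, Havcr2 and Cd200, and not for Cd28, Icos, Lag3, Cd226 and Klrg1. The 250 bases before the start site of the 4 genes called in PP Tregs are printed 5′ to 3′ on the strand of the gene because JunB is a subunit of AP-1, whose site is written TGANTCA. The stretches are chr11:46454681-46454930 (+ strand) for Havcr2, chr16:45409054-45409303 (- strand) for Cd200, chr16:45224087-45224336 (+ strand) for Btla and chr16:43664185-43664434 (- strand) for Tigit. Capitals mark a match to TGANTCA or to the related TGACGTCA on either strand, and matches of the 2 motifs did not overlap in any stretch.
Havcr2: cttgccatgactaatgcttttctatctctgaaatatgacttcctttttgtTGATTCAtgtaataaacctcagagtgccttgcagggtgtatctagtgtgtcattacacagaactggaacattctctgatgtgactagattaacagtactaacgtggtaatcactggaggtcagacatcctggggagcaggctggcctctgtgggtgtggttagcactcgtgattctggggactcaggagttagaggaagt
Cd200: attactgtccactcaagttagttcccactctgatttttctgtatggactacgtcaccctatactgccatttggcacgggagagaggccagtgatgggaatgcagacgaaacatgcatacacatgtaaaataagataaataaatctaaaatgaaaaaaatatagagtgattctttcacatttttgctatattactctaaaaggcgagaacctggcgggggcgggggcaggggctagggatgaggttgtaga
Btla: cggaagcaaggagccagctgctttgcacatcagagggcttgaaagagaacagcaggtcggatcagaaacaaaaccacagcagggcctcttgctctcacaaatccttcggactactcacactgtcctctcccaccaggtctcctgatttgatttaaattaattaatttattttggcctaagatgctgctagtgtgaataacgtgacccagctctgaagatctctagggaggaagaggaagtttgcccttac
Tigit: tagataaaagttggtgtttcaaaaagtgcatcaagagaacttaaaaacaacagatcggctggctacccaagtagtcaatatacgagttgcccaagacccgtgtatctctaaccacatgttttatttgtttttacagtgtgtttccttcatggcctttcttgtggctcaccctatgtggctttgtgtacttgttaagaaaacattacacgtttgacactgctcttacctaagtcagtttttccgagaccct
Only the Havcr2 stretch held a match, TGATTCA, whose first base lies 200 bases before the start site. TGANTCA was found in the same window of 6.75% of 32851 RefSeq promoters and TGACGTCA in 1.55%, and neither in Ctla4. These matches describe letters, and binding was not measured.

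In CD25- PP Tregs, where JunB was removed for days in mature cells, none of the 10 genes was called, as none of 17079 genes was (0%) by the quasi-likelihood test. Junb itself, the deleted gene, was not called there (log2 fold change -2.44, FDR = 0.0940), so the lack of a call does not show a lack of change. At an unadjusted p under 0.05 there were 618 genes (3.62%) and none of the 10, while DESeq2 called 35 genes and the exact test 43, none of the 10 in either. The fitted log2 fold changes of 9 of the 10 were above 0, and 4 (Btla, Havcr2, Cd226 and Klrg1) had both iKO libraries above both iHET libraries, against 32.1% of all genes without overlap. Their median log2 fold change was 0.26, beside 0.00 for all genes.

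Klrg1 was at 33.1 and 27.7 CPM in iHET and at 35.7 and 54.2 CPM in iKO libraries, with a log2 fold change of 0.55 (95% interval -0.01 to 1.12). Btla was at 98.0 and 107 CPM in iHET and at 145 and 112 CPM in iKO libraries (0.32, interval -0.07 to 0.71). Havcr2 had its lowest levels in these libraries, at 6.26 and 5.33 CPM in iHET and 7.42 and 7.10 CPM in iKO libraries (0.32, interval -0.29 to 0.93). Each of these intervals includes 0, as does that of Cd226. Cd226 was at 93.2 and 75.9 CPM in iHET and at 101 and 107 CPM in iKO libraries (0.29, interval -0.06 to 0.64).

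The iHET group, with a male mouse 1 and a female mouse 2 as in the iKO group, was itself uneven. Its mouse 1 and mouse 2 had 743 and 403 CPM of Icos, 1992 and 1360 CPM of Ctla4, and 167 and 98.1 CPM of Tigit, with the iKO libraries between them for all 3 genes. The Tfr markers summed to 1852 and 1357 CPM in these iHET libraries, and Cd8a, a marker of CD8 T cells, was at 2.65 and 13.6 CPM. In iKO mice 1 and 2, Cd8a was at 2.13 and 23.2 CPM, and the Tfr markers at 1771 and 1921 CPM. Lag3 was at 77.3 and 74.1 CPM in iHET and at 70.0 and 130 CPM in iKO libraries, so its log2 fold change of 0.39 turned to -0.12 without iKO replicate 2. Cd200 (69.5 and 100 CPM against 84.7 and 114 CPM) and Cd28 (608 and 576 CPM against 584 and 594 CPM) overlapped as well.

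In colonic Tregs, 1 of 16313 genes was called (0.00613%), which was Junb, and none of the 10. By unadjusted p under 0.05 there were 632 genes (3.87%), with Havcr2, Icos and Tigit among them. The likelihood ratio test of the study called 25 genes and DESeq2 50, with none of the 10 in the first and Havcr2 in the second. Of the 10 genes, 8 had a log2 fold change below 0, and their median was -0.19, beside 0.00 for all genes. Only Havcr2 and Icos had genotypes that did not overlap, against 8.35% of all genes. When iKO and iHET mice of the same number were set side by side, as the fit does, 7 of the 10 genes differed in 1 direction at all 3 numbers, against 27.3% of all genes. Cd28, Icos, Lag3, Tigit and Havcr2 were lower in each iKO mouse than in the iHET mouse of its number, and Btla and Cd200 were higher. That the numbers mark shared cages is an assumption, as the labels name no cage. Deviations from the group mean correlated at r of -0.0885 to 0.293 between iKO and iHET mice of the same number. Between those of different numbers r was -0.272 to 0.182, so the ranges overlapped.

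Havcr2 was at 54.0, 76.2 and 92.2 CPM in iHET and at 40.9, 50.7 and 46.0 CPM in iKO libraries. Every iKO library was under every iHET library, at a fold of 1.59 lower (log2 fold change -0.67, standard error 0.154, 95% interval -1.06 to -0.28, unadjusted p = 0.00608, FDR = 0.947). Icos was at 895, 841 and 902 CPM in iHET and at 672, 693 and 682 CPM in iKO libraries. The fold was 1.29 lower (log2 fold change -0.37, 95% interval -0.62 to -0.12, unadjusted p = 0.0124, FDR = 0.947). These intervals cover 1 gene each, and neither gene passed the adjustment over all genes. Over the alternative fits the FDR of Havcr2 was between 0.0485 and 0.999, lowest by DESeq2, and that of Icos between 0.0798 and 0.999.

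Tigit was at 159, 259 and 240 CPM in iHET and at 156, 182 and 155 CPM in iKO libraries, with a log2 fold change of -0.39 (95% interval -0.76 to -0.03) and groups that overlapped through iHET mouse 1. Ctla4 was at 2552, 3202 and 2792 CPM in iHET and at 2589, 2271 and 2294 CPM in iKO libraries (-0.26, interval -0.59 to 0.08). The same mouse, the male of its group, was the lowest iHET library for both, and for Havcr2 and Klrg1. Among iKO mice the male, mouse 1, was lowest for Havcr2 and Klrg1, though not for Tigit and Ctla4. The part of sex or of the number of Cre alleles was not tested. Klrg1 was at 230, 474 and 668 CPM in iHET and at 311, 420 and 497 CPM in iKO libraries (-0.06, interval -0.52 to 0.40), so its spread within a genotype was wider than the difference. Epithelial markers in these libraries summed to 299 to 1126 CPM in iHET and 204 to 2047 CPM in iKO Tregs, and none of the 9 was called.

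None of the remaining genes had an interval that left out 0 in the colon. Cd28 had an interval of the log2 fold change from -0.37 to 0.13, Cd226 from -0.30 to 0.18, Btla from -0.19 to 0.49, Lag3 from -0.63 to 0.07, and Cd200 from -0.12 to 0.62. A change of Btla or Cd200 in the colon as large as that in PP Tregs of KO mice, and downward, lies outside these intervals.

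**Figure D3:**
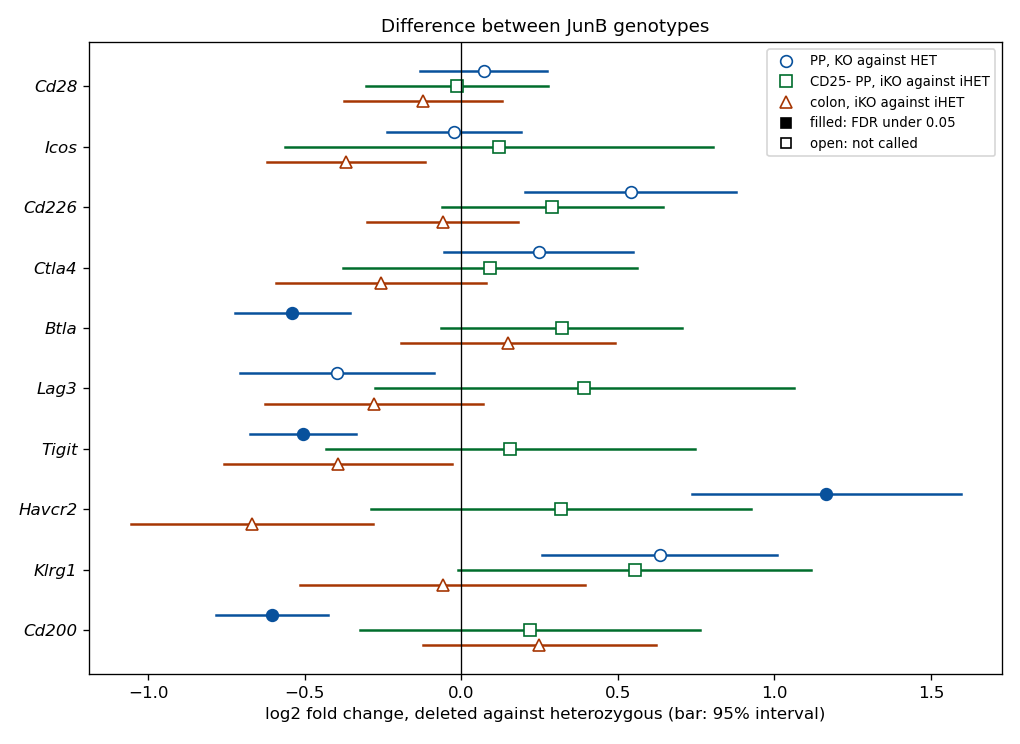
Log2 fold change of each gene between JunB genotypes (horizontal axis) with its 95% interval, for PP (circles), CD25- PP (squares) and colonic Tregs (triangles), filled where the FDR was under 0.05. The filled points are Havcr2 at 1.16, Tigit at -0.50, Btla at -0.54 and Cd200 at -0.60, all in PP Tregs of the Foxp3-YFP-cre line.

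Whether the genotype difference depends on the organ was tested in the inducible line by the interaction of organ and genotype. None of 18626 genes was called (0%) by the quasi-likelihood test, with 622 at an unadjusted p under 0.05 and 2 called by DESeq2. Of the 10 genes, only Havcr2 had an unadjusted p under 0.05 (interaction -1.02 on the log2 scale, 95% interval -1.71 to -0.33, unadjusted p = 0.00805, FDR = 1.00). The 2 organs differ in gate as well, since only the PP cells were sorted as CD25-.

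The median absolute log2 fold change of the 10 genes was 0.70 between the organs, beside 0.31 for all genes. Between the genotypes it was 0.52 in PP (0.13 for all genes), 0.26 in CD25- PP (0.17) and 0.25 in colonic Tregs (0.16). Of the 10 genes, 7 were called between colonic and CD25- PP Tregs, against 17.3% of 18626 genes. Klrg1, Havcr2, Cd28 and Ctla4 were higher in the colon (4 of 10, against 10% of all genes), and Cd200, Btla and Lag3 were lower (3 of 10, against 7.29%). The ranges of the organs did not overlap for these 7, against 16.4% of all genes. As the PP cells were gated as CD25-, organ and gate cannot be told apart. Mouse 1 of each group was its only male, so the share of males also differed between the organs.

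Klrg1 was at 33.1, 27.7, 35.7 and 54.2 CPM in the 4 CD25- PP libraries and between 230 and 668 CPM in the 6 colonic libraries (median 447 CPM). That was 11.7-fold higher in the colon (log2 fold change 3.55, standard error 0.313, FDR = 0.000176). Havcr2 rose from 5.33 to 7.42 CPM in CD25- PP to 40.9 to 92.2 CPM in the colon (median 52.3 CPM), 8.95-fold (log2 fold change 3.16, standard error 0.174, FDR = 1.59e-05). Havcr2 had the seventh lowest p of all genes tested. Both receptors are found on effector Tregs of tissues. PP Tregs of the Foxp3-YFP-cre line, gated as CD62L- and not on CD25, had levels between those of the organs for both, on their separate scaling. The myeloid and dendritic markers Fcer1g (log2 fold change 3.70), Itgax (3.48), Csf1r (1.97) and Xcr1 (1.52) were also called higher in the colon. The part of such cells in the levels of Klrg1 and Havcr2 was not tested.

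Cd28 was at 576 to 608 CPM in CD25- PP and at 894 to 1016 CPM in the colon, 1.59-fold higher (log2 fold change 0.67, standard error 0.0760, FDR = 0.000594). Ctla4 was at 1360 to 1992 CPM in CD25- PP and at 2271 to 3202 CPM in the colon, with a mean of 1735 CPM in the first and 2617 CPM in the second (log2 fold change 0.59, standard error 0.121, FDR = 0.00998). Within iKO libraries alone the difference of Ctla4 was 0.41 and was not called (FDR = 0.205). Neither gene overlapped between the organs.

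Cd200 was at 69.5 to 114 CPM in CD25- PP and at 23.8 to 51.0 CPM in the colon, 2.57-fold lower there (log2 fold change -1.36, standard error 0.200, FDR = 0.00205). Btla was at 98.0 to 145 CPM in CD25- PP and at 50.4 to 73.8 CPM in the colon, 2.02-fold lower (-1.02, standard error 0.121, FDR = 0.000747). Lag3 was at 70.0 to 130 CPM in CD25- PP and at 37.1 to 68.1 CPM in the colon, 1.67-fold lower (-0.74, standard error 0.185, FDR = 0.0230). The call of Lag3 was lost without colonic iKO replicate 2 (FDR = 0.0501), CD25- PP iHET replicate 1 (0.0661) or 2 (0.0691), or CD25- PP iKO replicate 2 (0.102), and in each genotype alone.

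Icos, Tigit and Cd226 were not called between the organs, and each was called without CD25- PP iHET replicate 1 (FDR = 0.00509, 0.0377 and 0.0445). With all libraries their log2 fold changes were 0.37 (95% interval 0.03 to 0.71, FDR = 0.120), 0.44 (0.05 to 0.83, FDR = 0.114) and 0.28 (0.08 to 0.48, FDR = 0.0583). Tigit was also called without colonic iHET replicate 1 (FDR = 0.0419). For all 3 genes the 2 organs overlapped.

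Other markers differed between the organs as well. Of the 8 Tfr markers 7 were called, all lower in the colon, though their sums, in which Pdcd1 is included and was not called, overlapped (1357 to 1921 CPM in CD25- PP and 1081 to 1593 CPM in the colon). Of the 9 B cell markers Pax5 and Cd22 were called, both lower, with sums of 107 to 145 CPM in CD25- PP and 58.1 to 133 CPM in the colon. Of 9 epithelial markers 6 were called, all higher in the colon. Of the 9 myeloid markers 4 were called, all higher. Of the 9 CD8 and NK markers, 8 of them tested, 5 were called, Cd8a, Klrb1c, Nkg7 and Eomes lower and Tyrobp higher, with sums of 95.9 to 127 CPM in CD25- PP and 40.4 to 70.5 CPM in the colon. Of the 6 Treg markers 5 were called, Il2ra (log2 fold change 1.67) and Foxp3 (0.73) higher in the colon and Ikzf2, Cd3e and Trac lower. Il2ra encodes CD25, and the PP cells were sorted as CD25-, so its call is no independent result on the organ. The part of the cells that these markers stand for in the organ differences of the 10 genes was not tested.

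**Figure D4:**
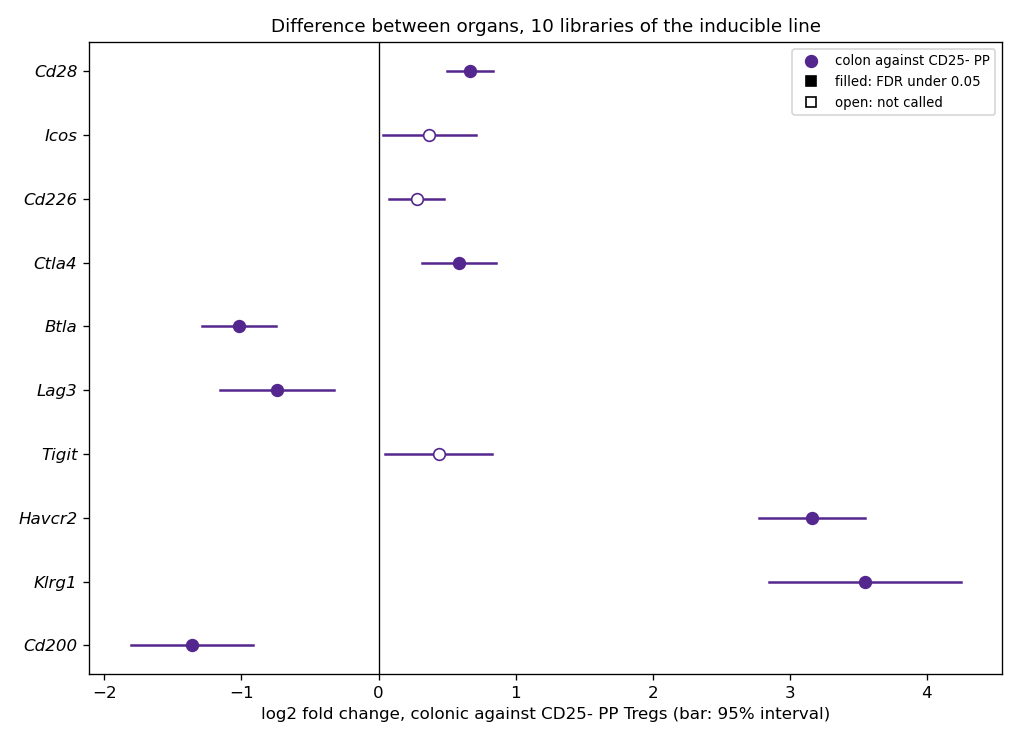
Log2 fold change of each gene between colonic and CD25- PP Tregs (horizontal axis), with its 95% interval, over 10 libraries of the inducible line, filled where the FDR was under 0.05. Klrg1 at 3.55 and Havcr2 at 3.16 stand far above the others, and Cd200 at -1.36 and Btla at -1.02 are lowest.

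The 2 pairs of receptors that compete for ligands were also set against each other within each library, as a ratio of CPM per kb that does not depend on library scaling. The ratio of the activating Cd226 to the inhibitory Tigit was 0.0771 and 0.110 in HET and 0.183 and 0.203 in KO PP Tregs. Both KO libraries lay above both HET libraries, with a difference of 1.06 on the log2 scale. With 2 libraries against 2 an exact permutation test cannot give a p under 0.333, which is the value reached (two-sided, adjusted p = 0.670 over 8 comparisons of ratios). In CD25- PP Tregs the ratio was 0.105 and 0.145 in iHET and 0.133 and 0.130 in iKO libraries, and in colonic Tregs 0.138, 0.0816 and 0.0925 in iHET and 0.145, 0.108 and 0.133 in iKO libraries, with overlap in both.

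The ratio of Ctla4 to Cd28 was 13.7 and 15.4 in HET and 15.9 and 17.1 in KO PP Tregs. In the inducible line it lay between 6.21 and 8.60 in CD25- PP and between 6.60 and 8.31 in colonic Tregs. Although both genes were higher in the colon, the difference of their log2 ratio between the organs was -0.07 and the ranges overlapped (exact permutation test, two-sided, p = 0.533, adjusted p = 0.711). For Cd226 to Tigit the difference between the organs was -0.17 (exact permutation test, two-sided, p = 0.419, adjusted p = 0.670). The smallest p of this test with 4 and 6 libraries is 0.00476.

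**Figure D5:**
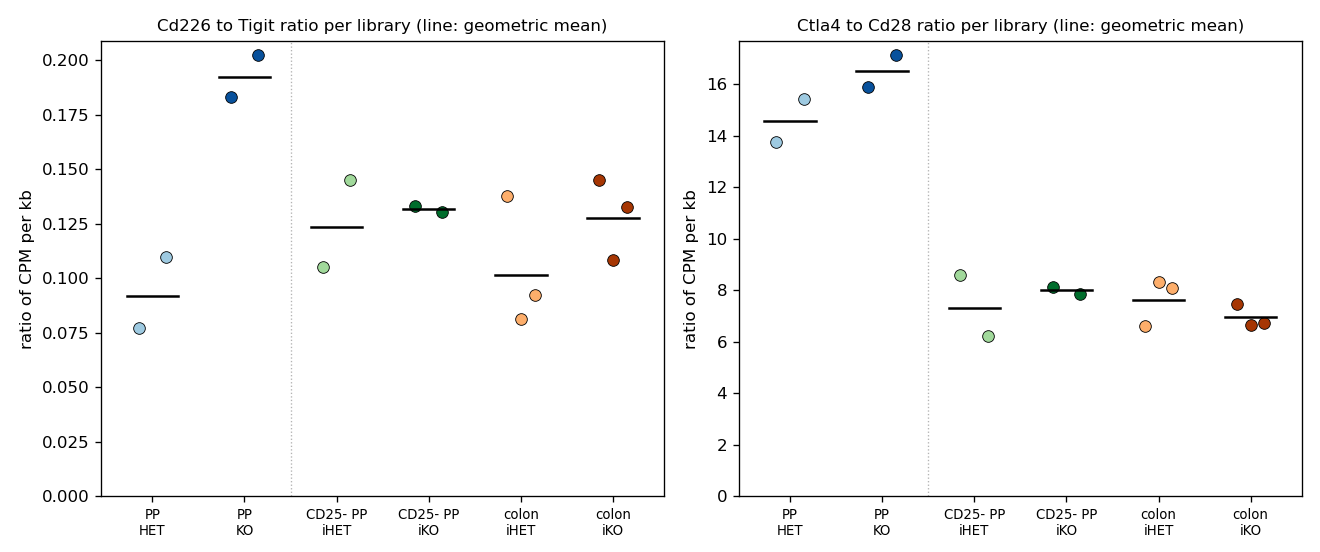
Ratio of CPM per kb of Cd226 to Tigit and of Ctla4 to Cd28 in each library (points) with the geometric mean of the group (lines). The Cd226 to Tigit ratio is 0.183 and 0.203 in KO PP Tregs, above all other libraries. The Ctla4 to Cd28 ratio is lower in all libraries of the inducible line than in those of the Foxp3-YFP-cre line. The lines differed in gate and sex and were sequenced separately.

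The ligands, other receptors and signalling molecules around the 10 genes were taken from lists of 90 genes in all. In PP Tregs, 10 of the 85 tested were called, 2 higher and 8 lower in KO Tregs, where 3.35% of all genes were called, 0.990% higher and 2.36% lower. Of 15 ligands tested, Cd274 (PD-L1, log2 fold change 0.59, FDR = 0.00834) and Pvr (the ligand of TIGIT and CD226, 0.64, FDR = 0.0275) were higher. Ceacam1 (-2.19, FDR = 0.0268) and Lgals3 (-1.31, FDR = 0.0398), which bind TIM-3 and LAG-3 respectively and which epithelium also expresses, were lower. Cd274 was at 166 to 170 CPM in HET and at 247 to 257 CPM in KO libraries, and Pvr at 29.3 to 34.5 CPM in HET and at 49.7 to 49.9 CPM in KO libraries. The median log2 fold change of the ligands was 0.07.

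Of 16 other costimulatory and inhibitory receptors tested in PP Tregs, Pdcd1 and Cd160 were called, both lower. Pdcd1, which encodes PD-1 and is also a marker of follicular cells, averaged 675 CPM in HET and 360 CPM in KO Tregs (log2 fold change -0.91, FDR = 0.00620). Cd160, which shares the ligand HVEM with BTLA, averaged 36.6 CPM in HET and 22.5 CPM in KO Tregs (-0.70, FDR = 0.0156). Among 19 genes that signal below CD28 and ICOS, Malt1, a protease of the NF-kB branch, was lower (-0.56, FDR = 0.0255). Of 20 genes of inhibitory signalling, Sh2d1a, the adaptor SAP (-0.62, FDR = 0.0199), and Ubash3b, a phosphatase that dampens receptor signals (-0.50, FDR = 0.0218), were lower. Of 15 genes of CTLA-4 trafficking, Lrba was lower (-1.02, FDR = 0.0208), at 33.2 to 40.7 CPM in HET and 15.5 to 21.0 CPM in KO libraries. LRBA keeps CTLA-4 from degradation in lysosomes, and Ctla4 mRNA itself was not called.

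None of the tested list genes was called between genotypes in CD25- PP (87 tested) or colonic Tregs (86 tested), nor by the interaction (89 tested). Between the organs 33 of 89 were called, 12 higher and 21 lower in the colon, where 17.3% of all genes were called, 10% higher and 7.29% lower. The counts of single lists below are to be read against the same shares. Of 16 ligands 5 were called, 4 of them higher. Cd86, the ligand of CD28 and CTLA-4 (log2 fold change 1.06, FDR = 0.000996), Lgals3 (3.86, FDR = 0.00188) and Ceacam1 (4.80, FDR = 0.00333) were higher, while Tnfrsf14, the ligand of BTLA (-1.08, FDR = 0.00962), was lower. Ceacam1 and Lgals3 are genes of epithelium too, whose markers were higher in the colon. Cd86 is a gene of antigen-presenting cells, and 4 of the 9 myeloid and dendritic markers were called, all higher in the colon. The part of these cells in the ligand levels was not tested.

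All 5 called genes of 19 other receptors were lower in the colon, among them Cd160 (-1.96, FDR = 3.10e-05), Slamf6 (-1.08, FDR = 0.00164), Cd84 (-0.37, FDR = 0.00991) and Cd96 (-0.41, FDR = 0.0172), a further receptor for CD155. In the signalling below CD28 and ICOS 8 of 19 were called, 2 higher, with Akt1 (0.46, FDR = 0.00604) among them, and 6 lower, with Themis (-0.86, FDR = 0.000441), Carmil2 (-0.43, FDR = 0.0152) and Zap70 (-0.45, FDR = 0.0162). Of 20 genes of inhibitory signalling 11 were called, 3 higher and 8 lower, with Sh2d1a (-2.11, FDR = 9.80e-05), the phosphatase Ptpn6 (-0.81, FDR = 0.00154), and Dgkz (-0.80, FDR = 0.00176) and Lax1 (-1.11, FDR = 0.00241) lowest in p. Of the trafficking genes 4 of 15 were called. Trat1 (TRIM, which carries CTLA-4 to the surface, -0.69, FDR = 0.00183) was lower, and Arf1 (0.43, FDR = 0.00740), Pld1 (1.58, FDR = 0.00883) and Ppp2r1a (0.28, FDR = 0.0353) were higher.

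For each gene called between the organs, the 2 genes of most similar pattern were taken as those whose log2(CPM + 1), centred on its own mean over 10 libraries, differed least on average. For Klrg1 these were Cxcl2 (mean absolute difference 0.268) and Ermn (0.294), set against a mean absolute deviation of Klrg1 itself of 1.66. For Havcr2 they were Fam110a (0.251) and Dyrk3 (0.260), with 1.42 for Havcr2 itself. For Cd200 the nearest was Izumo1r (0.170), which encodes folate receptor 4, followed by Filip1l (0.178). For Btla they were Pitpnm2 (0.0997) and Sh3gl3 (0.101), for Lag3 Hmgxb4 (0.110) and Zfp688 (0.116), for Cd28 Ncln (0.0631) and Irak2 (0.0640), and for Ctla4 Cd200r3 (0.0785) and Fem1c (0.0800). Over so few libraries, with an organ difference in all of them, such a likeness is a description only.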

How the data were processed

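RNA-seq counts of 14 libraries in 6 groups were used. The authors trimmed reads with Trim Galore, aligned them to mm10 (GRCm38) with STAR and assigned them to genes with featureCounts, and deposited whole-number read counts per gene without normalization. The paired-end reads of the inducible line were treated by the authors as single-end. The reads carry no molecular identifiers, and counts were not stated to use strand. No base of an exon of the 10 genes belongs to another gene. Symbols and positions came from GENCODE M21, while the study names a later release, by gene ID (53706 of 53801 and 55394 of 55487 IDs matched).

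Genes with at least 1 CPM in as many libraries as the smaller group were tested with edgeR 4.0.16 (R 4.3.3) by the quasi-likelihood test with TMM scaling, a prior count of 1 and Benjamini-Hochberg adjustment over all genes tested, and called at an FDR under 0.05. Each genotype comparison was fitted on its own libraries, that of colonic Tregs with the mouse number as a term. The study describes a cage term, and taking the number for the cage is an assumption, since the labels name no cage. The organ comparison and the interaction were fitted on the 10 libraries of the inducible line, as differences of group means. The labels name separate mice by number, but do not say whether the PP and colonic libraries of the inducible line share mice. Alternatives were DESeq2 1.42.0, other scalings, no filter, the tests of the study, fits with or without the replicate number, and leave-one-out fits. The scripts were first run on simulated counts with known changes. Ratios were compared by exact permutation. Python 3.11.15 with matplotlib 3.10.9 drew the plots.

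The 10 genes, the lists and the tests were chosen with earlier results of these data known. Named genes are the 10, Junb, up to 4 called genes of lowest p per list and comparison, and the 2 nearest patterns. Other genes named, all markers, were chosen after their values were seen, as were the comparison of ratios and that of same-numbered mice.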

Additional observations from a re-analysis of the deposited data

Results flagged for a closer look

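For Havcr2 and Btla the genotypes of JunB were apart in opposite directions in different comparisons. In PP Tregs each KO library had more Havcr2 than each HET library (log2 fold change 1.16) and in CD25- PP Tregs each iKO library had more than each iHET library (0.32), while in colonic Tregs every iKO library had less than every iHET library (-0.67). Within the inducible line the difference between the organs was tested, with an interaction of -1.02 on the log2 scale (edgeR FDR = 1.00). The difference between PP Tregs of the Foxp3-YFP-cre line and colonic Tregs was not tested. These cells also differ in organ, gate, line of mice, sex and duration of the deletion, which cannot be told apart. Btla was lower in both KO libraries of PP Tregs (-0.54) and higher in both iKO libraries of CD25- PP Tregs (0.32), and this difference was not tested. The second value was 0.13 without CD25- PP iKO replicate 1 and 0.49 without replicate 2. Only the PP changes of the Foxp3-YFP-cre line passed the FDR.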

How the results depend on the processing

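In PP Tregs the count of the 10 genes called moved from 4 to 7 without a filter on low counts and to 7 with the replicate block, and lay between 0 and 5 when 1 replicate was left out. Genes called there moved from 409 to 1305 without the filter, 696 with DESeq2, 689 with the exact test, 1015 with the replicate block, and 86 to 406 with 1 replicate left out. In CD25- PP Tregs none of the 10 was called in any setting, and genes called moved from 0 to 232 without the filter, 35 with DESeq2, 43 with the exact test, 1 in the fit of 10 libraries, and 0 to 73 with 1 replicate left out. In colonic Tregs DESeq2 called 1 of the 10, and genes called moved from 1 to 24 without the filter, 50 with DESeq2, 25 with the likelihood ratio test, and 0 to 3 with 1 replicate left out. Between the organs genes called moved from 3227 to 1201 in iHET and 758 in iKO libraries alone, and 1559 to 3963 with 1 replicate left out. Of the 10 genes, 6 were called in iHET and 5 in iKO libraries alone, and 6 to 9 with 1 replicate left out. For the interaction, genes called moved from 0 to 282 without the filter and 2 with DESeq2. The causes of these moves were not tested.

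Signs turned with 1 replicate left out for Cd28 (-0.0044 to 0.15) and Icos (-0.10 to 0.052) in PP Tregs, for Ctla4 (-0.16 to 0.39), Cd28 (-0.056 to 0.024), Icos (-0.26 to 0.62), Lag3 (-0.12 to 0.77), Tigit (-0.18 to 0.59), Cd200 (-0.022 to 0.51) and the ratios of Cd226 to Tigit (-0.14 to 0.33) and Ctla4 to Cd28 (-0.10 to 0.37) in CD25- PP Tregs, for Klrg1 in colonic Tregs (-0.30 to 0.13), and for Btla (-0.33 to 0.037) and Cd200 (-0.25 to 0.28) in the interaction, all on the log2 scale. No other setting turned a sign. Same-numbered mice deviated together with r of 0.0982 in PP, 0.101 in CD25- PP and -0.0885 to 0.293 in colonic Tregs, so the numbers were not taken as pairs beyond the mouse number in the colonic fit, without which 1 gene was called there and none of the 10. With the replicate block the organ comparison called 6 of the 10, without Lag3. With 2 mice per group in PP, no permutation test of a single gene can pass 0.05.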
